A study of Homo sapiens with 48 samples.

Results

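NGP cells, a human neuroblastoma line with amplified MYCN, were compared after 3 days with the METTL3 inhibitor STM2457 or with DMSO, its solvent, before any block of transcription. The comparison was formed from the sample titles that give NGP, 3 days and 0 h of actinomycin D, which is 4 of the 48 libraries of the series. The DMSO group held 2 libraries and the STM2457 group, treated with 8 µM of the compound, held 2 libraries. Both groups were wild type, were grown in the same medium and had received no actinomycin D. The other libraries cover the Kelly line, 6 days of treatment and 3 or 6 h of actinomycin D at 10 µg/ml. From these, the 2 DMSO and 2 STM2457 libraries of NGP at 6 days, and the same 4 of Kelly at 3 days, were used to test where the response of NGP at 3 days differed.

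METTL3 is the catalytic subunit of the nuclear complex that writes N6-methyladenosine (m6A) on adenosines of nascent mRNA. Reader proteins bind the mark and affect splicing, export, translation and, for many transcripts, the rate of decay, while the demethylases FTO and ALKBH5 can remove it. STM2457 blocks the enzyme and not its synthesis, so the METTL3 mRNA is not expected to report the inhibition. Neuroblastoma arises from sympathoadrenal cells of the neural crest, and the lines keep parts of that programme, including catecholamine enzymes, neurotrophic receptors and axon guidance genes.

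The 4 libraries held 11993189 and 12834226 fragments in genes (DMSO) and 14789873 and 14399195 (STM2457), and 14210 to 14510 genes had at least 1 fragment. Of the 16 neuroblastoma identity markers, 15 lay above 40 CPM (fragment counts over library size, scaled by edgeR's TMM method) in each library. The exception was TH, the first enzyme of catecholamine synthesis, at 1.17 and 0.219 CPM in DMSO and 2.12 and 0.771 CPM under STM2457. Of the Schwann cell markers, SOX10 stood at 1.56 and 1.82 CPM in DMSO and 0.686 and 1.03 CPM under STM2457. The 9 counted markers of that list summed to 20.6 and 16.2 CPM in DMSO and 21.5 and 21.6 CPM under STM2457. Of the 5 tested, 4 lay above 0 and 1 below. The spike-in RNAs (ERCC) took 0.265 to 0.291% of the fragments of these libraries and mitochondrial genes 4.03 and 4.21% in DMSO and 4.80 and 5.18% under STM2457. Whether replicates 1 and 2 were separate cultures is not stated, so the p-values measure only the spread between libraries. That spread was pooled over all 24 NGP libraries, including those with actinomycin D and those of 6 days. Because bulk RNA was sequenced, a change in the kinds of cells present and a change in RNA per cell cannot be told apart.

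METTL3 mRNA stood at 51.9 and 49.8 CPM in DMSO and 50.6 and 56.8 CPM under STM2457, and these groups overlapped. Its log2 difference was 0.078 ± 0.15 (SE; edgeR adjusted p = 0.946). MYCN (chromosome 2, 15940550 to 15947007 in GRCh38, as are all positions below, taken from the count files), the driver oncogene of the line, stood at 5679.6 and 5564 CPM in DMSO and 4403 and 5071 CPM under STM2457. Both treated libraries lay below both controls, and MYCN fell by 0.25 on the log2 scale (SE 0.059, edgeR adjusted p = 0.0022). MYCN lost its call without DMSO replicate 1 or STM2457 replicate 1 (-0.23 and -0.15). With scaling to the spike-ins the difference was -0.15 and did not pass.

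Of 14661 genes tested, 542 (3.7%) passed edgeR's quasi-likelihood test at a Benjamini-Hochberg adjusted p under 0.05. The lower genes were the larger group, with 359 (2.45%) below DMSO and 183 (1.25%) above it. The shifts were small: the median absolute log2 difference of the called genes was 0.42, and 60 of them changed at least 2-fold, 21 upward and 39 downward. Both treated values lay below both control values in all 359 lower genes and above them in 182 of the 183 higher genes, where 23% and 22.6% of all genes tested separated the same ways. The exception, named after its values were seen, was the histone gene H2AC19 at 4.68 and 2.62 CPM in DMSO and 39.1 and 3.6 CPM under STM2457, whose call rests on STM2457 replicate 1. H2AC19 lost its call without DMSO replicate 1, DMSO replicate 2 or STM2457 replicate 1 (3.02, 2.19, -0.021). H2A genes are near-identical copies, and fragments can be split between them. Called genes were abundant, with median levels of 117 CPM (higher) and 183 CPM (lower) against 20.6 CPM over all genes tested. Fewer genes passed when 1 library was left out: 281 without DMSO replicate 1, 278 without DMSO replicate 2, 262 without STM2457 replicate 1 and 297 without STM2457 replicate 2. In all 4 of those refits 151 of the 542 genes were called, 48 higher and 103 lower. A fit on the 4 libraries alone, without the spread of the other NGP groups, called 1123 genes. The split between directions depended on the scaling, with 418 higher and 138 lower when the libraries were scaled to their spike-ins, which moved the median of all genes to 0.098. Directions are therefore relative to the typical gene. Under that scaling 22 of the 121 genes selected by the naming rule lost their call. Those 121 include genes that had no call to lose, such as METTL3.

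**Figure D1:**
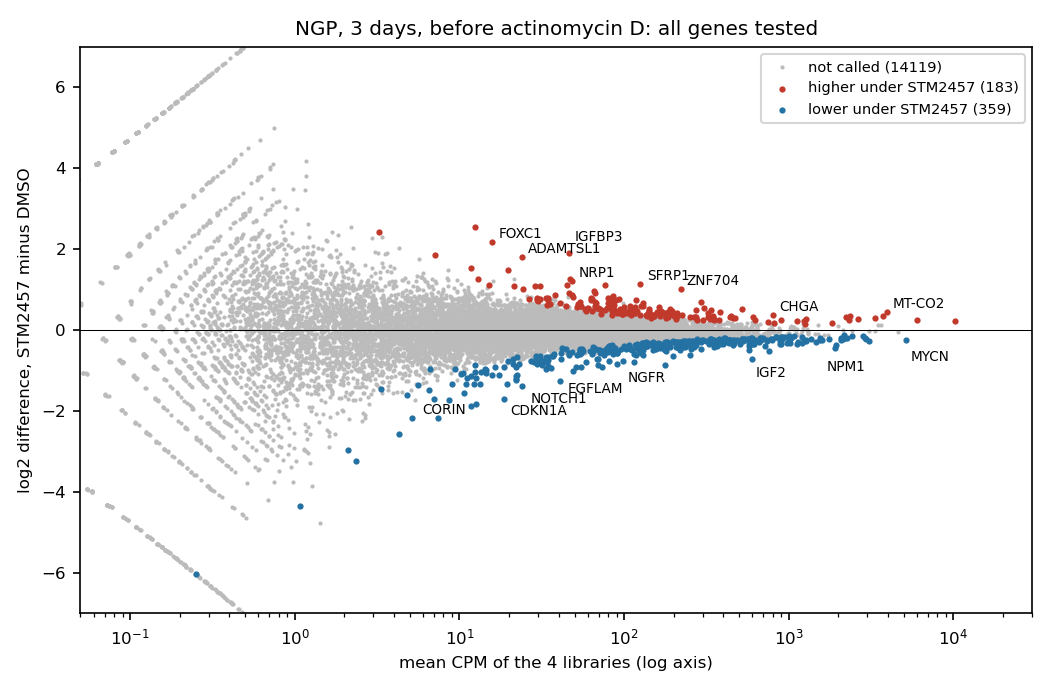
Log2 difference of STM2457 minus DMSO against the mean CPM of the 4 libraries (log axis) for the genes tested in NGP at 3 days, with 183 genes called higher in red and 359 called lower in blue. Most called genes lie within 1 log2 unit of 0 and at high counts, and 319 of the 14661 genes, 1 of them called, lie outside the frame.

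Gene length moved with the direction. Among genes of at least 10 CPM, split into 5 groups of 1854 genes by exon length, the median log2 difference ran from -0.044 in the shortest group over -0.019, -0.0076 and 0.013 to 0.053 in the longest. In the same order 23, 21, 35, 24 and 77 genes were called higher and 101, 76, 63, 51 and 52 lower. Across these 9270 genes Spearman's rho between length and difference was 0.13, and 0.12 without the cytosolic ribosomal protein genes, given as a description since genes of 1 set of libraries are not independent. The part of gene length in the results below was not tested.

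Proteins of the cytosolic ribosome held the most calls of any list. Of 85 ribosomal protein genes tested, 46 (54.1%) were called lower and none higher, where 2.45% of all genes tested were lower. Their median log2 difference was -0.23 against 0 over all genes, and 79 of the 85 lay below 0. With 1 library left out, 27 to 38 of them were called lower. Under spike-in scaling 16 were called lower and 1 higher, with a median of -0.13. Most of these genes have processed pseudogenes elsewhere in the genome, and the counting could split or lose fragments between the copies.

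The mRNAs of ribosomal proteins are known for a pyrimidine run that begins at a C at the transcription start, the terminal oligopyrimidine motif, which couples their translation to growth signals. Starts listed in RefSeq (GRCh38.p14) were found for 68 of the 85 genes, and 45 of these (66.2%) had a C followed by at least 4 C or T at the listed start, in the sense strand. The share was 26 of 36 (72.2%) for those called lower, 24 of 248 (9.68%) for the other genes called lower, 8 of 131 (6.11%) for genes called higher and 5.21% of the tested genes with an entry. Over all 27305 symbols of the table it was 4.04%. NPM1, a nucleolar chaperone gene outside the 85, also had such a run. Of the 3 ribosomal genes described below, RPL7A had a run, while RPS7, with the largest decrease, and RPL19 had none at the listed start. The sequences of RPL7A, NPM1 and RPS7 are shown from 10 bases before the start, with any run in capitals.
RPL7A, chr9:133348208-133348237, plus strand: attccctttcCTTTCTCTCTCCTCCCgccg
NPM1, chr5:171387839-171387868, plus strand: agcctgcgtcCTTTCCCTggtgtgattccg
RPS7, chr2:3575250-3575279, plus strand: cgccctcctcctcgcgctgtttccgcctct
These letters describe the reference at 1 listed start per gene and say nothing of which start NGP cells use.

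RPS7, a small-subunit protein that also binds MDM2, stood at 961 and 833 CPM in DMSO and 645 and 614 CPM under STM2457, a log2 difference of -0.51 ± 0.052 (SE; edgeR adjusted p = 7.88e-12). RPL7A of the large subunit stood at 1085 and 1083 CPM in DMSO and 884 and 843 CPM under STM2457, a difference of -0.33 ± 0.045 (SE; edgeR adjusted p = 1.47e-07). RPL19, also of the large subunit, stood at 1594 and 1616 CPM in DMSO and 1271 and 1349.9 CPM under STM2457, a difference of -0.29 ± 0.038 (SE; edgeR adjusted p = 3.88e-08). In these 3 genes the treated and control libraries did not overlap, and the calls held without each library in turn. The 76 mitochondrial ribosomal protein genes gave another picture, with none called in either direction and a median of 0.01. Their smallest p-values belonged to MRPL36, with 12.9 and 18.4 CPM in DMSO and 29.8 and 24.4 CPM under STM2457 (log2 0.79, SE 0.28), and MRPL11, with 62.4 and 64 CPM in DMSO and 44.2 and 50.9 CPM under STM2457 (log2 -0.41, SE 0.15), and neither passed.

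Of the 30 nucleolar genes of ribosome assembly, 5 were called lower and 1 higher, which is 20% against 3.7% of all genes tested. Their median of -0.10 moved to 0.0027 under spike-in scaling. NPM1 (chromosome 5, 171387116 to 171411137), an abundant nucleolar chaperone, stood at 2274 and 2112 CPM in DMSO and 1607 and 1604 CPM under STM2457. The treated values lay clearly below the controls, and NPM1 fell by 0.45 on the log2 scale (SE 0.037, edgeR adjusted p = 1.37e-15). BOP1, a factor of large-subunit processing, differed by -0.47 ± 0.11 (SE) and DKC1, the pseudouridine synthase of H/ACA particles, by -0.31 ± 0.079 (SE). NOP10, another H/ACA protein, was the higher gene, at 25.7 and 27.6 CPM in DMSO and 41.6 and 41.1 CPM under STM2457 (log2 0.63, SE 0.18, edgeR adjusted p = 0.027). BOP1 lost its call without DMSO replicate 2 or STM2457 replicate 2 (-0.47 and -0.34). DKC1 lost its call without any 1 of the 4 libraries (-0.31 to -0.30). NOP10 lost its call without any 1 of the 4 libraries (0.58 to 0.69). Refits without a library called 1 or 2 nucleolar genes lower and 0 higher.

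Cytosolic aminoacyl-tRNA synthetases, which charge tRNAs for translation, fell in 6 of 20 genes (30% against 2.45% of all genes tested) and none rose. Of the 20, 18 lay below 0, with a median of -0.20. AARS1, the alanyl enzyme, stood at 263 and 255 CPM in DMSO and 195 and 196 CPM under STM2457 (log2 -0.41, SE 0.085, edgeR adjusted p = 6.48e-04). VARS1 differed by -0.31 ± 0.070 (SE) and MARS1, 12% of whose exon bases are shared with ARHGAP9, by -0.27 ± 0.076 (SE). In the refits without a library 1 to 3 of the 20 were called. VARS1 lost its call without DMSO replicate 1 or STM2457 replicate 2 (-0.28 and -0.27). MARS1 lost its call without any 1 of the 4 libraries (-0.33 to -0.21). Under spike-in scaling 1 of the 20 was called.

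Among chaperones every called gene was lower. Of 28 genes of the cytosolic and mitochondrial heat shock group 8 were called lower, 28.6% against 2.45% of all genes tested, and none higher. The list's median was -0.21, with 24 below 0. Subunits of the CCT ring, which folds actin and tubulin, made up 6 of the 8. CCT2 (chromosome 12, 69585426 to 69601570) stood at 3220.3 and 3118 CPM in DMSO and 2698 and 2719.6 CPM under STM2457 (log2 -0.23, SE 0.033, edgeR adjusted p = 5.03e-07), and CCT5 at 746 and 708 CPM in DMSO and 594 and 597 CPM under STM2457 (log2 -0.29, SE 0.054, edgeR adjusted p = 1.46e-04). HSP90AA1, the inducible cytosolic HSP90, stood at 3415 and 3312 CPM in DMSO and 2798 and 2778 CPM under STM2457 (log2 -0.27, SE 0.031, edgeR adjusted p = 5.92e-10), and HSP90AB1, its constitutive partner, differed by -0.18 ± 0.036 (SE). In each of these 4 genes both treated libraries lay below both controls. Of 18 chaperones of the endoplasmic reticulum 6 (33.3%) were called lower and none higher, with a median of -0.17. HSP90B1, whose exons share 12% of their bases with C12orf73, stood at 696 and 652 CPM in DMSO and 495 and 467 CPM under STM2457 (log2 -0.49, SE 0.058, edgeR adjusted p = 2.17e-09), HYOU1 differed by -0.48 ± 0.10 (SE) and PDIA6, 25% of whose exon bases are shared with ATP6V1C2, by -0.33 ± 0.069 (SE). Without 1 library 4 to 7 heat shock and 3 to 5 reticulum genes were called. HSP90AB1 lost its call without DMSO replicate 1 or STM2457 replicate 2 (-0.15 and -0.14). Under spike-in scaling 1 of the 28 and 2 of the 18 were called lower.

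Energy metabolism split between the nuclear and the mitochondrial genome. Of 80 nuclear genes of the respiratory complexes and ATP synthase 9 were called lower, 11.25% against 2.45% of all genes tested, and none higher. The median was -0.22, with 68 below 0. The count was 5 without DMSO replicate 2, 6 without STM2457 replicate 2 and 7 or 8 without the others. Under spike-in scaling it was 5, with a median of -0.13. CYC1, cytochrome c1 of complex III, stood at 81 and 91.1 CPM in DMSO and 56.3 and 48.4 CPM under STM2457 (log2 -0.72, SE 0.14, edgeR adjusted p = 2.61e-04), ATP5F1B, the catalytic beta subunit of ATP synthase, at 558 and 569 CPM in DMSO and 449 and 441 CPM under STM2457 (log2 -0.34, SE 0.058, edgeR adjusted p = 1.56e-05), and COX6C of complex IV differed by -0.44 ± 0.085 (SE). The controls lay above the treated libraries in all 3. All 13 mitochondrially encoded mRNAs lay above 0, with a median of 0.25, and 10 of them were called higher and none lower, 7 to 12 when 1 library was left out. MT-CO2, a subunit of complex IV, stood at 3240.4 and 3419.8 CPM in DMSO and 4404 and 4683 CPM under STM2457 (log2 0.45, SE 0.038, edgeR adjusted p = 3.63e-15). MT-CYB of complex III differed by 0.35 ± 0.036 (SE), MT-CO1 by 0.24 ± 0.032 (SE), MT-CO3 by 0.30 ± 0.049 (SE) and MT-ND4 by 0.25 ± 0.043 (SE), and these were the most abundant of the higher genes. The 10 called higher are 76.9% of the 13, against 1.25% of all genes tested, and the 13 mRNAs are not independent observations. Replicates of 1 condition also differed in the mitochondrial share of fragments, at 5.25 and 4.62% in NGP DMSO at 6 days. In Kelly DMSO at 3 days the shares were 5.86 and 5.32%. The median of the 13 was 0.036 in Kelly at 3 days and 0.15 in NGP at 6 days.

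Of 29 genes of glycolysis and the hypoxia response 8 fell, 27.6% against 2.45% of all genes tested, and none rose. Their median was -0.25, with 25 of the 29 below 0. In refits without a library 6 or 7 of them were called, and under spike-in scaling 4, with a median of -0.15. ENO1 stood at 2113 and 2239.7 CPM in DMSO and 1671 and 1730.3 CPM under STM2457 (log2 -0.36, SE 0.035, edgeR adjusted p = 1.23e-12) and PKM at 984 and 1003 CPM in DMSO and 778 and 804 CPM under STM2457 (log2 -0.33, SE 0.048, edgeR adjusted p = 7.07e-07), without overlap of the groups. GAPDH, often used as a reference gene, stood at 1871 and 1907 CPM in DMSO and 1666 and 1592 CPM under STM2457 (log2 -0.21, SE 0.038, edgeR adjusted p = 4.95e-05), and under spike-in scaling its difference was -0.11 and did not pass. ALDOC, the brain form of aldolase, had the largest decrease among the called genes of the list, at 19.7 and 15.3 CPM in DMSO and 6.55 and 7.26 CPM under STM2457 (log2 -1.34, SE 0.25, edgeR adjusted p = 8.13e-05). EPAS1, a hypoxia-inducible factor outside the rule for named genes and chosen after its values were seen, stood at 19.4 and 23.8 CPM in DMSO and 10.4 and 9.63 CPM under STM2457 (log2 -1.11, SE 0.32, edgeR adjusted p = 0.029), without overlap. EPAS1 lost its call without any 1 of the 4 libraries (-1.24 to -0.95).

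**Figure D2:**
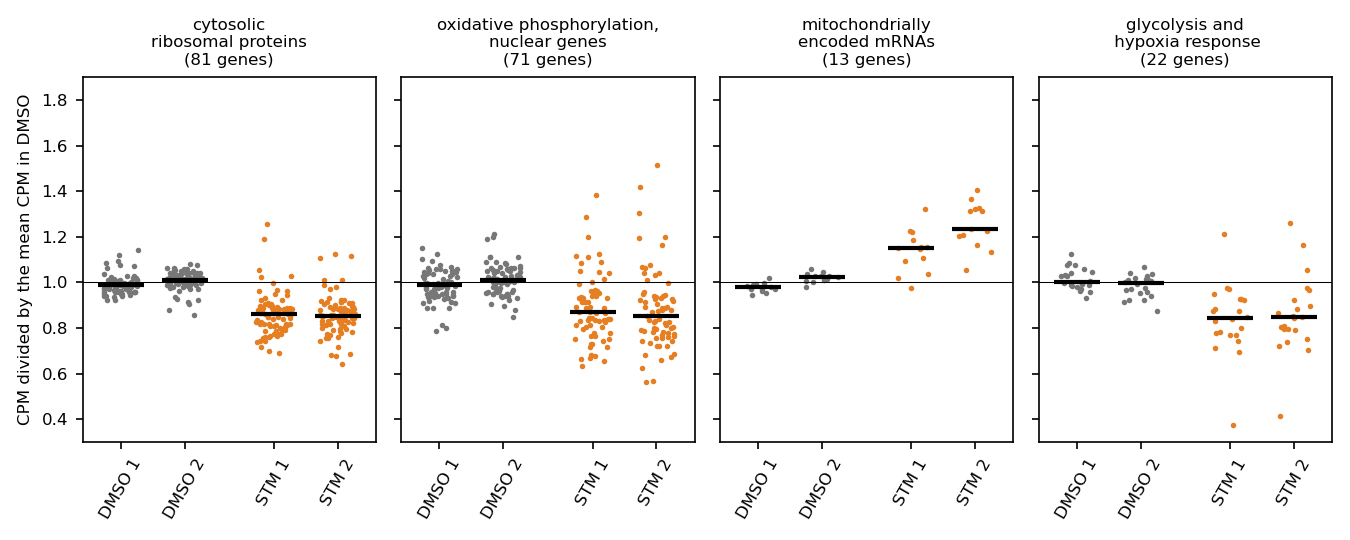
CPM of each gene divided by its mean CPM in DMSO, for members of at least 10 mean CPM in 4 gene lists, with 1 column per library (DMSO in grey, STM2457 in orange, sideways scatter random) and a black bar at the median. The medians under STM2457 were 0.860 and 0.853 for cytosolic ribosomal proteins, 0.869 and 0.851 for nuclear respiratory genes, 1.15 and 1.23 for mitochondrial mRNAs and 0.844 and 0.846 for glycolysis.

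The largest increases among genes of at least 10 CPM were in a mix of developmental regulators, secreted proteins and surface receptors. FOXC1 (chromosome 6, 1609915 to 1613897), a forkhead factor of neural crest and mesoderm, stood at 6.16 and 5.32 CPM in DMSO and 25.9 and 25.7 CPM under STM2457. Its treated values were over 4-fold above the controls by the fitted fold of 4.49 (log2 2.17, SE 0.54, edgeR adjusted p = 0.0073). IGFBP3 (chromosome 7, 45912245 to 45921874), a secreted protein that binds insulin-like growth factors, stood at 15.7 and 23.1 CPM in DMSO and 69.3 and 76.3 CPM under STM2457 (log2 1.9, SE 0.29, edgeR adjusted p = 2.37e-06). ADAMTSL1 (chromosome 9, 17906563 to 18910950), a matrix protein, stood at 8.73 and 12.5 CPM in DMSO and 36.4 and 38.5 CPM under STM2457 (log2 1.81, SE 0.34, edgeR adjusted p = 1.48e-04). In each of the 3 the lowest treated value was well above the highest control.

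NRP1 (chromosome 10, 33177492 to 33336262), a coreceptor for semaphorins and VEGF, stood at 30 and 28.1 CPM in DMSO and 66.6 and 69 CPM under STM2457 (log2 1.22, SE 0.19, edgeR adjusted p = 1.92e-06). ISLR2, a membrane protein of growing axons, stood at 30.2 and 24.9 CPM in DMSO and 67 and 65.7 CPM under STM2457 (log2 1.27, SE 0.24, edgeR adjusted p = 1.62e-04). SFRP1, a secreted antagonist of Wnt, was the most abundant of these 10 genes and stood at 85.1 and 72.5 CPM in DMSO and 171 and 175 CPM under STM2457 (log2 1.13, SE 0.12, edgeR adjusted p = 6.81e-11). CHRM3, a muscarinic acetylcholine receptor, stood at 7.01 and 8.24 CPM in DMSO and 16.9 and 19.9 CPM under STM2457 (log2 1.27, SE 0.34, edgeR adjusted p = 0.017). SEPTIN14 differed by 1.53 ± 0.28 (SE), LIX1 by 1.5 ± 0.34 (SE) and ZNF322 by 1.13 ± 0.30 (SE). The control and treated values did not overlap in any of these genes, as the rule that selected them required. FOXC1 lost its call without any 1 of the 4 libraries (2.07 to 2.28). LIX1 lost its call without DMSO replicate 1 (1.30). CHRM3 lost its call without any 1 of the 4 libraries (1.15 to 1.39). ZNF322 lost its call without DMSO replicate 1, DMSO replicate 2 or STM2457 replicate 1 (1.29, 0.98, 0.95).

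Among the largest decreases, CABP7 (chromosome 22, 29720003 to 29731833), a neuronal calcium-binding protein with 12% of its exon bases shared with ZMAT5, stood at 17.4 and 19.5 CPM in DMSO and 6.11 and 3.85 CPM under STM2457 (log2 -1.88, SE 0.30, edgeR adjusted p = 4.14e-06). CORIN (chromosome 4, 47593999 to 47838106), a membrane protease, stood at 19.6 and 19.8 CPM in DMSO and 5.68 and 5.46 CPM under STM2457 (log2 -1.82, SE 0.26, edgeR adjusted p = 5.64e-07). NOTCH1 (chromosome 9, 136494433 to 136546048), a receptor of cell-cell signalling that restrains neuronal differentiation, stood at 36.4 and 32.9 CPM in DMSO and 12.6 and 13.9 CPM under STM2457 (log2 -1.39, SE 0.22, edgeR adjusted p = 4.01e-06). In all 3 both treated libraries lay far below both controls.

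EGFLAM, the matrix protein pikachurin, stood at 59.5 and 54.8 CPM in DMSO and 20.5 and 27.7 CPM under STM2457 (log2 -1.25, SE 0.14, edgeR adjusted p = 3.94e-10). TNC, the matrix glycoprotein tenascin-C, stood at 28 and 27.8 CPM in DMSO and 7.23 and 15.1 CPM under STM2457 (log2 -1.32, SE 0.28, edgeR adjusted p = 7.68e-04), with its treated libraries further apart than its controls. RILPL2 stood at 11.7 and 19.6 CPM in DMSO and 4.49 and 7.96 CPM under STM2457 (log2 -1.33, SE 0.37, edgeR adjusted p = 0.020), and SNX33, with 10% of its exon bases shared with IMP3, at 20.6 and 17.8 CPM in DMSO and 10.6 and 4.56 CPM under STM2457 (log2 -1.34, SE 0.37, edgeR adjusted p = 0.018). All 10 genes of largest decrease were lower in both treated libraries than in both controls, as the rule that selected them required. SNX33 lost its call without DMSO replicate 1, DMSO replicate 2 or STM2457 replicate 2 (-1.23, -1.44, -0.86). RILPL2 lost its call without DMSO replicate 2 or STM2457 replicate 1 (-0.91 and -0.98). TNC lost its call without STM2457 replicate 1 (-0.89).

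**Figure D3:**
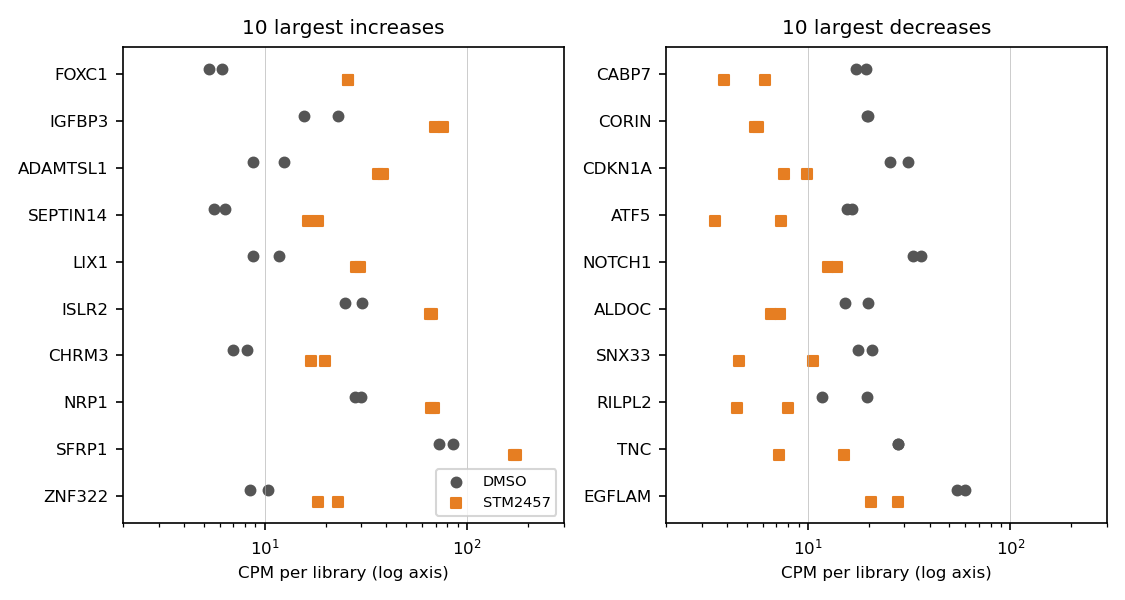
CPM per library (log axis) of the 10 genes of largest increase (left) and of largest decrease (right) among called genes of at least 10 mean CPM whose groups do not overlap, with DMSO as grey circles and STM2457 as orange squares. FOXC1 lies at 6.16 and 5.32 CPM in DMSO and 25.9 and 25.7 under STM2457, and CDKN1A at 25.6 and 31.3 in DMSO and 7.61 and 9.95 under STM2457.

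CDKN1A (chromosome 6, 36676460 to 36687339), the cyclin-dependent kinase inhibitor p21 and a target of p53, stood at 25.6 and 31.3 CPM in DMSO and 7.61 and 9.95 CPM under STM2457 and fell by 1.70 on the log2 scale (SE 0.28, edgeR adjusted p = 1.49e-05). The call held without each library in turn. Of the 28 p53 targets tested 2 were called higher and 1, CDKN1A, lower, which is 10.7% against 3.7% of all genes tested. The median of the list was -0.25. That median was -0.14 without DMSO replicate 1, -0.025 without DMSO replicate 2, -0.072 without STM2457 replicate 1, -0.21 without STM2457 replicate 2 and -0.15 under spike-in scaling. MDM2, the ubiquitin ligase that p53 induces and that marks p53 for degradation, stood at 1162 and 1133 CPM in DMSO and 1412 and 1363 CPM under STM2457 (log2 0.27, SE 0.048, edgeR adjusted p = 4.00e-05), and TP53I3 at 43.7 and 42.6 CPM in DMSO and 65.7 and 64.2 CPM under STM2457 (log2 0.59, SE 0.17, edgeR adjusted p = 0.036). TP53I3 lost its call without any 1 of the 4 libraries (0.57 to 0.61). Of 34 replication genes 1 rose and 1 fell, and of 36 genes of G2 and mitosis 2 rose and 1 fell, which is 5.88% and 8.33% against 3.7% of all genes tested. Of the G2 and mitosis genes 1 was called without DMSO replicate 1 or DMSO replicate 2, and 0 without STM2457 replicate 1 or STM2457 replicate 2. The median of the replication list was -0.02, and 0.08 under spike-in scaling. In the G2 and mitosis list 28 of 36 genes lay below 0, with a median of -0.12, and -0.023 under spike-in scaling. DESeq2 called 2 of these 36 higher and 6 lower. FEN1, the flap endonuclease, differed by 0.46 ± 0.11 (SE), MCM7 of the replicative helicase by -0.36 ± 0.065 (SE), and CDC20, an activator of the anaphase-promoting complex, by -0.62 ± 0.15 (SE). CENPF differed by 0.17 ± 0.040 (SE) and FOXM1, 16% of whose exon bases are shared with ITFG2, by 0.28 ± 0.082 (SE). FEN1 lost its call without DMSO replicate 1 or STM2457 replicate 2 (0.40 and 0.42). CDC20 lost its call without DMSO replicate 1, STM2457 replicate 1 or STM2457 replicate 2 (-0.56, -0.68, -0.56). CENPF lost its call without DMSO replicate 2, STM2457 replicate 1 or STM2457 replicate 2 (0.16, 0.17, 0.17). FOXM1 lost its call without any 1 of the 4 libraries (0.22 to 0.33).

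The amino acid response, the genes that ATF4 induces when amino acids run short, had 3 of 21 members called lower and none higher. This is 14.3% against 2.45% of all genes tested called lower, and the median was -0.13. Without STM2457 replicate 1 the count was 1 and the median -0.21, and 2 were called without each other library. Under spike-in scaling 2 were called, with a median of -0.032. ATF5, a transcription factor of that response with 20% of its exon bases shared with NUP62, stood at 16.5 and 15.5 CPM in DMSO and 7.36 and 3.47 CPM under STM2457 (log2 -1.56, SE 0.27, edgeR adjusted p = 3.84e-05). ASNS (chromosome 7, 97851677 to 97872542), asparagine synthetase, stood at 94.1 and 87.9 CPM in DMSO and 67 and 66.2 CPM under STM2457 (log2 -0.45, SE 0.11, edgeR adjusted p = 0.0045), and STC2, a secreted glycoprotein, at 36.8 and 40.8 CPM in DMSO and 19.6 and 24.9 CPM under STM2457 (log2 -0.80, SE 0.20, edgeR adjusted p = 0.0053). ASNS lost its call without DMSO replicate 1, STM2457 replicate 1 or STM2457 replicate 2 (-0.40, -0.46, -0.44). STC2 lost its call without DMSO replicate 2 or STM2457 replicate 1 (-0.73 and -0.64). The 8-letter element TGATGNAA, a form of the composite site bound by C/EBP and ATF factors, was searched on both strands of the RefSeq promoter window of each gene. It was found for 5 of 20 amino acid response genes (25%) and 6 of 16 synthetase genes (37.5%) against 1.76% of the tested genes with an entry and 3.67% of all symbols. The copy of ASNS is shown with the element in capitals.
ASNS, chr7:97872458-97872487, minus strand: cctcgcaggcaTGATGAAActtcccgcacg
Its first base lies at position -68 from the listed start in GRCh38.p14.

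Enzymes of serine, proline and one-carbon metabolism, which supply glycine, proline and formyl groups, had 4 of 17 members called lower and none higher. That share is 23.5% against 2.45% of all genes tested, and the median was -0.13. Without STM2457 replicate 1 the count was 2 and the median -0.078. Without DMSO replicate 2 the median was -0.22 and without STM2457 replicate 2 it was -0.19, with 3 called in each. Under spike-in scaling 2 were called, with a median of -0.028. SHMT2, the mitochondrial serine hydroxymethyltransferase, stood at 203 and 222 CPM in DMSO and 146 and 150.5 CPM under STM2457 (log2 -0.52, SE 0.079, edgeR adjusted p = 1.67e-06). PHGDH, the first enzyme of serine synthesis, stood at 309 and 306 CPM in DMSO and 233 and 242 CPM under STM2457 (log2 -0.37, SE 0.073, edgeR adjusted p = 2.79e-04). MTHFD1 differed by -0.33 ± 0.077 (SE). MTHFD1 lost its call without STM2457 replicate 1 (-0.30). Of 18 genes of purine and pyrimidine synthesis 1 was called, which is 5.56% against 3.7% of all genes tested. This was IMPDH2, the rate-limiting enzyme of guanine nucleotide synthesis, at 137 and 145 CPM in DMSO and 115 and 100.4 CPM under STM2457 (log2 -0.39, SE 0.095, edgeR adjusted p = 0.0056). IMPDH2 lost its call without DMSO replicate 2 or STM2457 replicate 2 (-0.34 and -0.29).

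Genes of the neuronal and adrenergic programme went both ways. Of 17 neurotrophic receptors and ligands 3 were higher and 1 lower, 23.5% called against 3.7% of all genes tested, with a median of 0.21. Without STM2457 replicate 1 the median was 0.0032 with 1 gene higher, and without STM2457 replicate 2 it was 0.37 with 2 higher. It was 0.31 without DMSO replicate 1 and 0.13 without DMSO replicate 2, with 2 higher in each. RET (chromosome 10, 43077064 to 43130351), the receptor tyrosine kinase for the GDNF family, stood at 63.4 and 73.6 CPM in DMSO and 118 and 115 CPM under STM2457 (log2 0.77, SE 0.14, edgeR adjusted p = 4.50e-05), and GFRA2, the coreceptor that presents neurturin to RET, at 43.9 and 48.2 CPM in DMSO and 94.7 and 79.1 CPM under STM2457 (log2 0.92, SE 0.19, edgeR adjusted p = 4.28e-04). ALK, a receptor kinase often mutated in neuroblastoma, stood at 125 and 137 CPM in DMSO and 170.0 and 172 CPM under STM2457 (log2 0.38, SE 0.11, edgeR adjusted p = 0.028). NGFR (chromosome 17, 49495293 to 49515008), the low-affinity neurotrophin receptor, moved the other way, at 119 and 129 CPM in DMSO and 72.2 and 73.6 CPM under STM2457 (log2 -0.77, SE 0.11, edgeR adjusted p = 5.93e-07). The groups of all 4 receptors were separate. GFRA2 lost its call without STM2457 replicate 1 (0.78). ALK lost its call without any 1 of the 4 libraries (0.31 to 0.45).

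Of the 15 genes of catecholamine synthesis and storage 2 rose and 1 fell, which is 20% against 3.7% of all genes tested. SLC6A2, the noradrenaline transporter, stood at 47.8 and 45.9 CPM in DMSO and 82.5 and 75.7 CPM under STM2457 (log2 0.76, SE 0.18, edgeR adjusted p = 0.0031). Of the granins, CHGA stood at 710.1 and 685 CPM in DMSO and 888 and 911 CPM under STM2457 (log2 0.37, SE 0.052, edgeR adjusted p = 3.56e-07) and CHGB at 419.9 and 441 CPM in DMSO and 373 and 374 CPM under STM2457 (log2 -0.20, SE 0.059, edgeR adjusted p = 0.032), opposite directions within 1 family of vesicle proteins. Among 17 adrenergic transcription factors TFAP2B was the higher gene, at 97.6 and 109 CPM in DMSO and 155 and 159 CPM under STM2457 (log2 0.60, SE 0.14, edgeR adjusted p = 0.0021), and MYCN, above, the lower, while HAND2 (0.036), GATA3 (0.12) and PHOX2A (-0.033) had log2 differences that did not pass. The 2 called adrenergic factors are 11.8% of the 17, against 3.7% of all genes tested. Under spike-in scaling CHGB differed by -0.10 and did not pass. SLC6A2 lost its call without DMSO replicate 2 or STM2457 replicate 1 (0.73 and 0.69). CHGB lost its call without any 1 of the 4 libraries (-0.24 to -0.17). TFAP2B lost its call without DMSO replicate 1 (0.52).

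In the neuronal cytoskeleton (26 genes, 2 higher, 2 lower, median 0.05), MAP1B, a microtubule-associated protein of growing axons, stood at 2332 and 2391 CPM in DMSO and 2909 and 2833 CPM under STM2457 (log2 0.28, SE 0.034, edgeR adjusted p = 2.29e-09). NEFL, the light neurofilament chain, stood at 48.9 and 49.3 CPM in DMSO and 74.3 and 70.3 CPM under STM2457 (log2 0.56, SE 0.14, edgeR adjusted p = 0.0052), whereas NEFH, the heavy chain, stood at 713 and 734 CPM in DMSO and 633 and 608 CPM under STM2457 (log2 -0.22, SE 0.060, edgeR adjusted p = 0.017). STMN1, which destabilizes microtubules, differed by -0.19 ± 0.050 (SE). The 4 calls are 15.4% of the 26 genes, against 3.7% of all genes tested. With spike-in scaling 8 of the 26 were called higher and none lower. Without any 1 of the 4 libraries 1 or 2 were called higher and 0 lower. Of 29 synaptic genes (median -0.04, and 0.06 under spike-in scaling) 1 rose and 1 fell, which is 6.90% against 3.7% of all genes tested. The higher gene was RAB3B (log2 0.75, SE 0.19). NEFL lost its call without DMSO replicate 1, DMSO replicate 2 or STM2457 replicate 1 (0.55, 0.56, 0.52). NEFH lost its call without any 1 of the 4 libraries (-0.25 to -0.19). STMN1 lost its call without any 1 of the 4 libraries (-0.21 to -0.18). RAB3B lost its call without DMSO replicate 1 or STM2457 replicate 2 (0.64 and 0.60).

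Axon guidance genes (60 tested, 4 higher, 3 lower, median 0.01) were called in both directions, 11.7% of them against 3.7% of all genes tested. With 1 library left out 3 were higher, and 1 was lower without DMSO replicate 2 or STM2457 replicate 2. The median ran from -0.069 to 0.088 in these refits. Besides NRP1, NRP2 stood at 311 and 299.5 CPM in DMSO and 383 and 389.6 CPM under STM2457 (log2 0.34, SE 0.072, edgeR adjusted p = 8.24e-04) and the ligand SLIT3 at 399.6 and 387 CPM in DMSO and 487 and 517 CPM under STM2457 (log2 0.35, SE 0.072, edgeR adjusted p = 4.57e-04). The plexins, the signalling partners of neuropilins, were lower where called: PLXND1 stood at 145 and 143 CPM in DMSO and 109 and 97.3 CPM under STM2457 (log2 -0.48, SE 0.096, edgeR adjusted p = 3.75e-04) and PLXNA3 at 17.4 and 20.05 CPM in DMSO and 10.7 and 8.73 CPM under STM2457 (log2 -0.95, SE 0.22, edgeR adjusted p = 0.0023). EPHA4, an ephrin receptor, stood at 18.9 and 15.9 CPM in DMSO and 5.99 and 9.31 CPM under STM2457 (log2 -1.19, SE 0.34, edgeR adjusted p = 0.025). PLXND1 lost its call without STM2457 replicate 2 (-0.40). PLXNA3 lost its call without DMSO replicate 2 or STM2457 replicate 2 (-0.84 and -0.81). EPHA4 lost its call without DMSO replicate 1, DMSO replicate 2 or STM2457 replicate 1 (-1.06, -1.31, -0.90). Of 50 ion channel genes none rose and 4 fell (8% lower against 2.45% of all genes tested), although the median was 0.24. Without DMSO replicate 2 only 1 was called lower, and 2 without each other library, with medians of 0.083 (without STM2457 replicate 1) to 0.22. Among ion channels limma-voom called 1 lower, and spike-in scaling 3 higher and 1 lower. KCNH7 stood at 36.9 and 24.6 CPM in DMSO and 12.8 and 13.5 CPM under STM2457 (log2 -1.22, SE 0.22, edgeR adjusted p = 6.13e-05), and CACNA1B differed by -0.37 ± 0.10 (SE). CACNA1B lost its call without DMSO replicate 2 or STM2457 replicate 2 (-0.29 and -0.26).

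In the insulin-like growth factor axis 1 of 17 genes was higher and 4 lower, 29.4% called against 3.7% of all genes tested. IGF2 (chromosome 11, 2129112 to 2141238), a fetal growth factor, had the smallest p-value of all genes tested. It stood at 719 and 758 CPM in DMSO and 447 and 461 CPM under STM2457 (log2 -0.70, SE 0.057, edgeR adjusted p = 1.03e-15), and 71% of its exon bases are shared with AC132217.2, a gene name whose fragments cannot be told apart from it. IGFBP5 stood at 301 and 304 CPM in DMSO and 199.8 and 197 CPM under STM2457 (log2 -0.61, SE 0.075, edgeR adjusted p = 5.39e-09) and IGFBPL1 differed by -0.28 ± 0.064 (SE), against the rise of IGFBP3. DLK1 (chromosome 14, 100725705 to 100738224), an imprinted membrane ligand related to Notch ligands, stood at 235 and 246 CPM in DMSO and 153 and 153 CPM under STM2457 (log2 -0.65, SE 0.075, edgeR adjusted p = 8.29e-10). With NOTCH1, JAG2 (-0.56) and HES6 (-0.58), it was 1 of 4 of the 26 ID and Notch pathway genes called lower. None was higher, and the share lower is 15.4% against 2.45% of all genes tested. Under spike-in scaling 2 of the 26 were lower and 2 higher, and the median moved from -0.09 to 0.01. Without DMSO replicate 2 or STM2457 replicate 2 the lower genes numbered 2, with medians of -0.28 and -0.18. IGFBPL1 lost its call without DMSO replicate 1 or STM2457 replicate 2 (-0.26 and -0.27). JAG2 lost its call without any 1 of the 4 libraries (-0.67 to -0.44). HES6 lost its call without DMSO replicate 2 or STM2457 replicate 2 (-0.40 and -0.42).

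Matrix and adhesion genes also split. Of 64 collagens, laminins and integrins (10.9% called against 3.7% of all genes tested) 3 were higher and 4 lower. The counts were 0 and 1 without DMSO replicate 1, 1 and 3 without DMSO replicate 2, 1 and 1 without STM2457 replicate 1 and 2 and 2 without STM2457 replicate 2. ITGA1, a collagen-binding integrin, stood at 25.6 and 37.9 CPM in DMSO and 60.1 and 60.6 CPM under STM2457 (log2 0.92, SE 0.18, edgeR adjusted p = 2.16e-04), and COL6A6 at 61.3 and 63.4 CPM in DMSO and 106 and 98.9 CPM under STM2457 (log2 0.72, SE 0.17, edgeR adjusted p = 0.0046). COL16A1 stood at 88.1 and 91.1 CPM in DMSO and 51 and 47.1 CPM under STM2457 (log2 -0.87, SE 0.11, edgeR adjusted p = 2.39e-08), and LAMA5 differed by -0.96 ± 0.25 (SE), COL1A1 by -0.57 ± 0.13 (SE) and COL11A1 by 0.72 ± 0.21 (SE). Of the 19 mesenchymal markers tested, VIM, the intermediate filament of mesenchymal cells, stood at 61.7 and 60 CPM in DMSO and 92.7 and 117 CPM under STM2457 (log2 0.78, SE 0.11, edgeR adjusted p = 5.71e-07) and FN1, fibronectin, at 88.8 and 79.2 CPM in DMSO and 116 and 104 CPM under STM2457 (log2 0.39, SE 0.12, edgeR adjusted p = 0.041), both higher. Of the 19 tested, 11 lay above 0 and 6 below, with a median of 0.099, which ran from 0 to 0.31 with 1 library left out. The 2 called are 10.5% of the 19, against 3.7% of all genes tested. Over all 26 markers of the list that were counted, tested or not, the summed level was 537 and 591 CPM in DMSO and 678 and 689.7 CPM under STM2457. YAP1 and TGFBI were at 0 in all 4 libraries and CD44 at 0 in 3 of them. ITGA1 lost its call without DMSO replicate 1 (0.67). COL6A6 lost its call without DMSO replicate 1, DMSO replicate 2 or STM2457 replicate 1 (0.69, 0.74, 0.67). LAMA5 lost its call without DMSO replicate 1, STM2457 replicate 1 or STM2457 replicate 2 (-0.67, -1.08, -0.85). COL1A1 lost its call without DMSO replicate 1 or STM2457 replicate 1 (-0.33 and -0.50). COL11A1 lost its call without any 1 of the 4 libraries (0.59 to 0.86). FN1 lost its call without any 1 of the 4 libraries (0.31 to 0.47).

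In the m6A machinery 1 gene was called. None of the 9 writer genes was called, 8 of them lay above 0 and the median was 0.16. RBM15B, an adaptor of the complex with 20% of its exon bases shared with DCAF1, stood at 70.1 and 70.2 CPM in DMSO and 96.5 and 95.3 CPM under STM2457 (log2 0.45, SE 0.16, edgeR adjusted p = 0.113), and with spike-in scaling it passed. Of 13 readers and erasers 1 was called, which is 7.69% against 3.7% of all genes tested. This was FTO, a demethylase, at 96.7 and 98.3 CPM in DMSO and 133 and 130.2 CPM under STM2457 (log2 0.44, SE 0.10, edgeR adjusted p = 0.0031). FTO lost its call without DMSO replicate 1 or STM2457 replicate 1 (0.42 and 0.42). No gene was called in 5 further lists: 5 Schwann cell markers (median 0.29), 32 immediate early genes (median 0.01), 26 HOX genes (0.10), 17 apoptosis regulators (0.16) and 207 zinc finger genes of chromosome 19 (0.12). BCL2, which inhibits apoptosis, stood at 14.7 and 22.2 CPM in DMSO and 36.4 and 29.5 CPM under STM2457 and did not pass (log2 0.83, SE 0.28, edgeR adjusted p = 0.081). Of 24 cholesterol genes (median -0.06, and 0.04 under spike-in scaling) 1 was called, which is 4.17% against 3.7% of all genes tested. This was STARD4, which was lower (log2 -0.58, SE 0.12). STARD4 lost its call without STM2457 replicate 1 (-0.45).

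**Figure D4:**
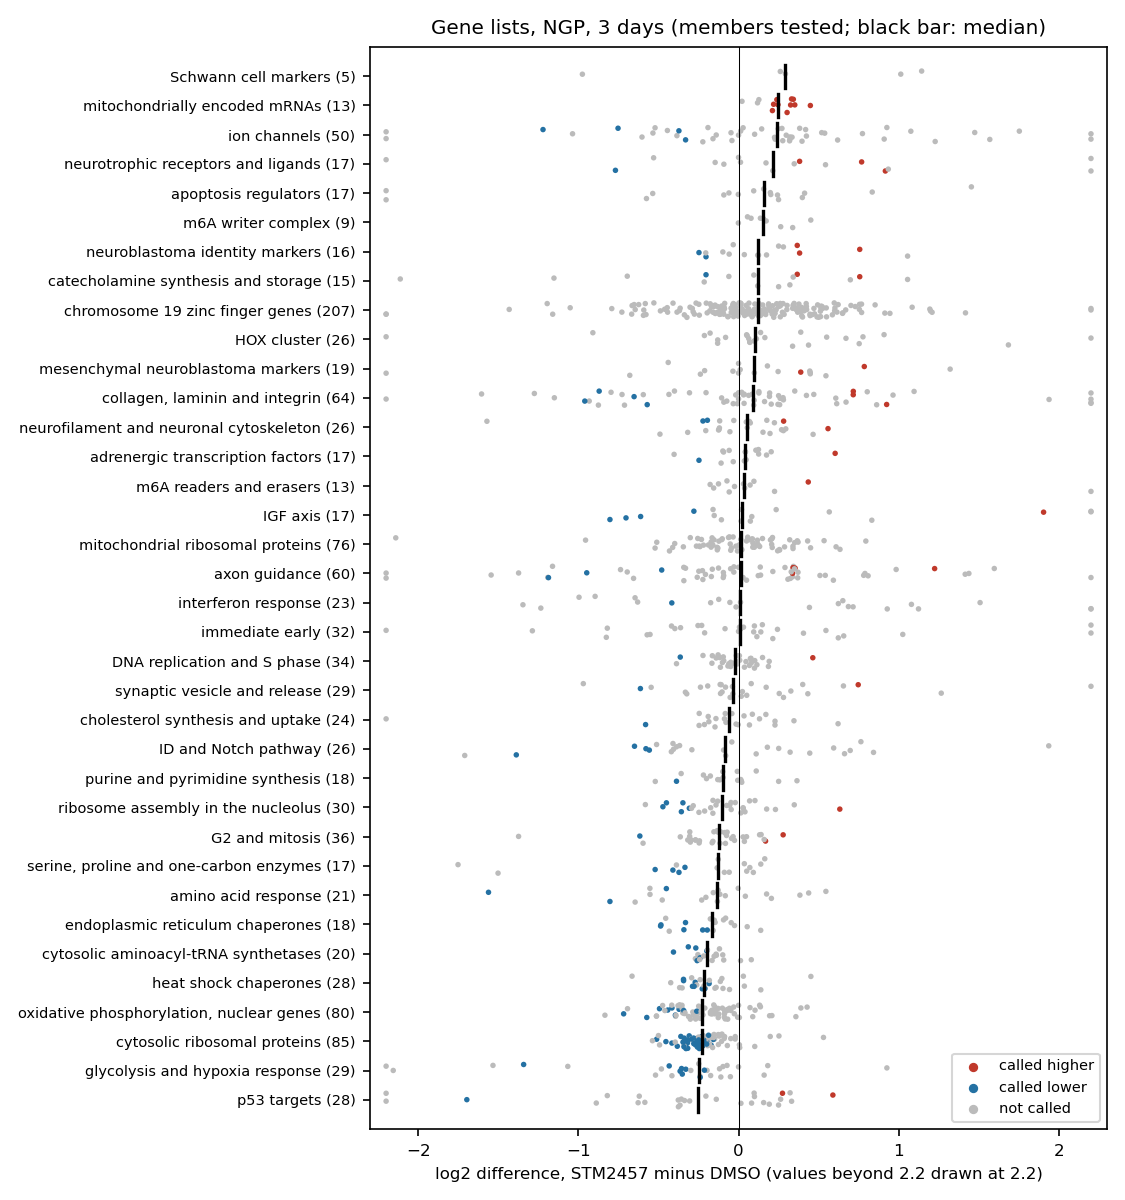
Log2 difference of STM2457 minus DMSO for the tested members of 36 gene lists, 1 point per gene (red called higher, blue called lower, grey not called, vertical scatter random, values beyond 2.2 drawn at 2.2), with a black bar at the list's median and the number tested in brackets. The 46 blue points of the cytosolic ribosomal proteins and the 10 red points of the mitochondrial mRNAs stand out by number.

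At 6 days the same contrast in NGP called 1172 genes (7.99%), 652 higher (4.45%) and 520 lower (3.55%). Both durations were fitted together, but their libraries do not overlap. Of the 542 genes of 3 days, 230 were called at 6 days in the same direction, which is 42.4% of the 3-day and 19.6% of the 6-day calls, and 29 in the opposite direction. The difference between the 2 effects passed in 410 genes (2.8%), 257 of them higher at 6 days (1.75%) and 153 lower (1.04%), and 109 of the 542 were among them. IGF2 (3 days -0.70, 6 days -0.80), NOTCH1 (-1.39 and -1.52), CORIN (-1.82 and -2.12), CDKN1A (-1.70 and -2.17) and SFRP1 (1.13 and 1.17) were called at both durations. The cytosolic ribosomal proteins had medians of -0.23 and -0.25, and the difference passed in none of the 85 genes.

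The amino acid response differed between the durations. Its median moved from -0.13 to -1.95, 20 of 21 genes were called lower at 6 days, and the difference passed in 20. ATF5 stood at 16.5 and 15.5 CPM in DMSO and 7.36 and 3.47 CPM under STM2457 at 3 days and at 145 and 192 CPM in DMSO and 6.64 and 3.32 CPM under STM2457 at 6 days. ASNS likewise stood at 94.1 and 87.9 CPM in DMSO and 67 and 66.2 CPM under STM2457 at 3 days and 283 and 266 CPM in DMSO and 78.2 and 71.3 CPM under STM2457 at 6 days (6 days minus 3 days -1.42 ± 0.15 SE, edgeR adjusted p = 2.17e-11). In both genes the treated libraries had close levels at the 2 durations, whereas the DMSO libraries were higher at 6 days. Of the synthetases the difference passed in 11 of 20, all lower at 6 days, and AARS1 stood at 433 and 503 CPM in DMSO and 174 and 167 CPM under STM2457 at 6 days.

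For 12 of the 28 heat shock genes the effects of the 2 durations differed, and 11 of these were higher at 6 days. HSP90AA1 stood at 1291 and 1265 CPM in DMSO and 2173 and 2125 CPM under STM2457 at 6 days, against 3415 and 3312 CPM in DMSO and 2798 and 2778 CPM under STM2457 at 3 days, so that its effect turned from -0.27 to 0.75 (difference 1.02 ± 0.044 SE, edgeR adjusted p = 3.50e-32). Both groups were lower at 6 days, DMSO by more. HSP90B1 changed from -0.49 to 0.49, with a difference of 0.98 (edgeR adjusted p = 7.64e-16). Of the 36 genes of G2 and mitosis the difference passed in 28, all higher at 6 days, and the list's median moved from -0.12 to 0.62. CDC20 stood at 41.3 and 40.6 CPM in DMSO and 52.8 and 57.1 CPM under STM2457 at 6 days, and its effect moved from -0.62 to 0.42 (difference 1.04, edgeR adjusted p = 8.83e-04).

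DDR2, a collagen receptor kinase, was higher under STM2457 at 3 days (log2 0.33, SE 0.067) and lower at 6 days (-1.07), with 287 and 285 CPM in DMSO and 359.7 and 359 CPM under STM2457 at 3 days and 578 and 546 CPM in DMSO and 272 and 263 CPM under STM2457 at 6 days. UNC5B, a netrin receptor, also turned, from 0.34 to -1.62 (difference -1.96, edgeR adjusted p = 4.91e-19). UNC5B lost its call without any 1 of the 4 libraries (0.29 to 0.39). IGFBP3, which stood at 15.7 and 23.1 CPM in DMSO and 69.3 and 76.3 CPM under STM2457 at 3 days, was at 6.62 and 4.64 CPM in DMSO and 7.44 and 7.03 CPM under STM2457 at 6 days, and the 2 effects differed by -1.55 ± 0.43 SE (edgeR adjusted p = 0.026). That difference no longer passed without DMSO replicate 1, STM2457 replicate 1 or STM2457 replicate 2 of the 3-day libraries (range -1.85 to -1.30). ALK had a larger effect at 6 days, 1.58 against 0.38 (difference 1.20, edgeR adjusted p = 2.14e-08). At 6 days it stood at 33.6 and 39.4 CPM in DMSO and 106 and 112 CPM under STM2457, so that both groups were lower than at 3 days, DMSO by more.

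**Figure D5:**
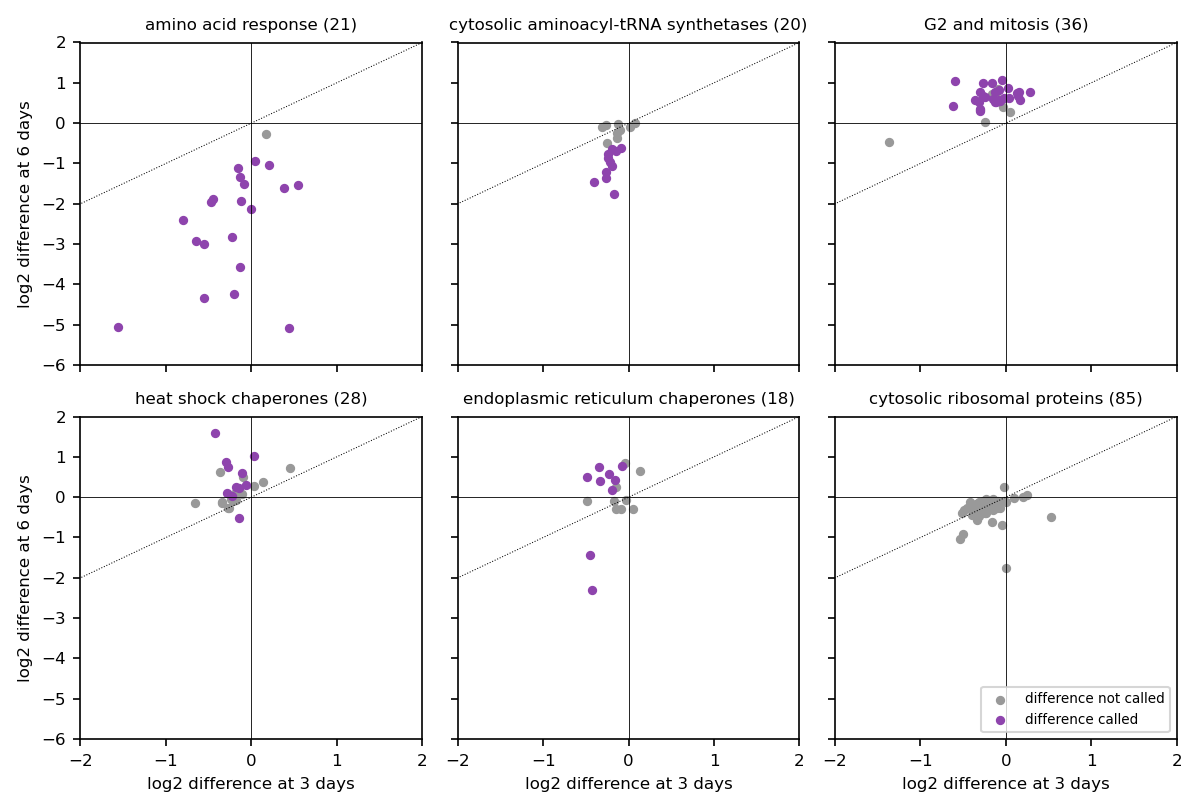
Log2 difference of STM2457 minus DMSO in NGP at 6 days against that at 3 days for the members of 6 gene lists, with genes whose 2 effects differed at an adjusted p under 0.05 in purple, the others in grey and equal effects on the dotted line. The amino acid response lies far below the line (20 of 21 purple), G2 and mitosis above it (28 of 36), and the ribosomal proteins have 0 of 85 purple points, while 1 of 208 points lies outside the frame.

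In Kelly, the other MYCN-amplified line, 264 of 17343 genes were called at 3 days in a joint fit of the 48 libraries. Of the 542 NGP calls, all tested in that fit, 121 were called in Kelly in the same direction. The difference between the lines passed in 28 of 17343 genes (0.161%), 15 higher (0.0865%) and 13 lower (0.075%) in NGP, and 20 of the 28 were among the 542. It passed in 16 genes without DMSO replicate 1 of NGP, in 10 without DMSO replicate 2, in 17 without STM2457 replicate 1 and in 12 without STM2457 replicate 2. DDC, the decarboxylase that makes dopamine, differed by 0.25 ± 0.12 (SE) in NGP, where it did not pass, and by -0.65 ± 0.079 (SE) in Kelly, and the lines differed by 0.90 (edgeR adjusted p = 6.66e-07). DBH (0.69), the next enzyme of the pathway and chosen after its values were seen, also differed in the same direction, with 0.12 in NGP and -0.56 in Kelly. ZNF704 (chromosome 8, 80628451 to 80874781), a zinc finger gene, stood at 150.1 and 141 CPM in DMSO and 295 and 295 CPM under STM2457 in NGP (log2 1.02, SE 0.088, edgeR adjusted p = 5.36e-15) and rose less in Kelly (0.38, edgeR adjusted p of the difference = 2.06e-06).

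NRP1 (0.11 in Kelly, difference 1.12, edgeR adjusted p = 5.62e-04), VIM (-0.44, difference 1.24, edgeR adjusted p = 0.020), CHRM3 (-1.10, difference 2.38, edgeR adjusted p = 0.0096) and TFAP2B (-0.19, difference 0.81, edgeR adjusted p = 0.0022) were higher in NGP and did not pass in Kelly. Of these 4, NRP1 held without each NGP library in turn. TFAP2B no longer passed without DMSO replicate 1 (differences 0.72 to 0.89 over the 4 refits), and CHRM3 (2.26 to 2.50) and VIM (1.05 to 1.39) no longer passed without DMSO replicate 1, DMSO replicate 2 or STM2457 replicate 2. IGFBP5 fell in NGP and had a log2 difference of 0.37 in Kelly that did not pass (difference -0.97, edgeR adjusted p = 0.0011). GNAS, which encodes the stimulatory G protein alpha subunit, was close to 0 in NGP (-0.064) and fell in Kelly (-0.45). Ribosomal proteins had medians of -0.23 in NGP and -0.17 in Kelly, and glycolysis genes -0.25 and -0.26. A difference between lines that did not pass does not show that the lines responded alike.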

How the data were processed

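Poly(A) RNA of NGP cells was sequenced after SMART cDNA library construction, per the labels' protocols. The authors deposited unscaled counts of fragments for each gene name, made with featureCounts 1.5.3 over exons of the protein-coding genes of GENCODE release 33 (19923 names) and 92 ERCC spike-ins, per the file headers, which name no strand option. Tools named in the submitters' processing notes are HISAT2 2.1.0, Trimmomatic 0.36 and FastQC 0.11.5, with GRCh38 as the build. Spike-in counts stayed out of tests and library sizes.

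All 24 NGP libraries (12 groups of 2) were fitted with edgeR 4.0.16 in R 4.3.3 (TMM scaling, filterByExpr with a minimum count of 10 and total of 15, quasi-likelihood test on trended dispersions), so that the groups shared 1 estimate of the spread. This left 14661 genes. The contrast was STM2457 minus DMSO at 3 days and 0 h, with p-values adjusted over all genes by the Benjamini-Hochberg method at 0.05. Differences between 6 and 3 days came from the same fit, and those between NGP and Kelly from a joint fit of 48 libraries (17343 genes). The SE is the absolute log2 difference divided by the square root of F. On simulated data from these libraries 61.6% of 99 genes changed 2-fold and 76.0% of 96 genes changed 4-fold were found among 14074 genes, with 7 unchanged genes called. Each simulated gene had 1 mean over all NGP groups, apart from the change, and the trended dispersion, without a spread of its own. The shares found in such data need not hold for the real libraries. The alternatives were RLE and library-size scaling, scaling to ERCC counts, no filter, DESeq2 1.42.0, limma-voom (limma 3.58.1), fits on 12 or 4 libraries, the replicate number as a term, leaving out each library while keeping the genes tested and, chosen after seeing the data, a quasi-likelihood fit given no trended dispersion.

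Named genes were METTL3 and MYCN, the 10 largest increases and decreases of at least 10 mean CPM whose groups do not overlap, the 5 most abundant called genes in each direction, up to 3 called members of each list per direction by adjusted p (up to 2 of smallest p where none was called), and the 3 genes of smallest p for each difference. Some genes that the rule selects are not reported here. The members and gene lists were chosen with earlier results of these data known. Overlaps of exons between genes were computed from the exon positions in the count files. Sequences come from RefSeq (GRCh38.p14), matched by symbol for 11545 of the 14661 genes.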

Additional observations from a re-analysis of the deposited data

Results flagged for a closer look

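Among the genes named in the report, the effect of STM2457 in NGP differed between 6 and 3 days, by edgeR's test of the difference itself, in 37 genes, and in 25 of them it passed without each 3-day library in turn. The values below are log2 differences, 6 days minus 3 days. Lower at 6 days were ATF5 (-3.51), UNC5B (-1.96), STC2 (-1.59), IGFBP3 (-1.55), ASNS (-1.42), DDR2 (-1.40), AARS1 (-1.05), MARS1 (-0.96), SHMT2 (-0.72), PHGDH (-0.54), MAP1B (-0.29), MT-ND4 (-0.26) and MT-CYB (-0.24). Higher at 6 days by over 0.5 were ALK (1.20), KCNH7 (1.13), CDC20 (1.04), HSP90AA1 (1.02), HSP90B1 (0.98), SLIT3 (0.96), PDIA6 (0.73), STMN1 (0.56) and COL16A1 (0.52). Higher by less were FOXM1 (0.49), COX6C (0.48), NEFH (0.47), HSP90AB1 (0.43), CENPF (0.42), IGFBP5 (0.40), CCT5 (0.39), PKM (0.39), NPM1 (0.38), MTHFD1 (0.36), IGFBPL1 (0.35), ENO1 (0.32), CCT2 (0.26), GNAS (0.23) and PRKDC (0.16).

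The effect at 3 days differed between the lines, NGP minus Kelly, in CHRM3 (2.38), VIM (1.24), NRP1 (1.12), DDC (0.90), TFAP2B (0.81), ZNF704 (0.64), DDR2 (0.44), MT-CO2 (0.42), GNAS (0.39), CHGA (0.31) and IGFBP5 (-0.97). Of these 11 differences 6 passed without each NGP library in turn.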

How the results depend on the processing

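DESeq2 called 900 genes (292 higher, 608 lower) and a fit on the 4 libraries alone 1123 (532 and 591), against 542 (183 and 359). Spike-in scaling gave 556 genes, 418 higher and 138 lower, of which 321 were called in the same direction as before. Leaving out 1 library gave 262 to 297 calls, 84 to 105 higher and 175 to 197 lower. Such refits kept the genes tested, rest on 1 library in an arm and assume that it varies like the other groups. Library size (520), RLE (572), no filter (562), limma-voom (428), 12 libraries (549) and no separate dispersion trend (532) stayed within 1.5 times. For 6 days minus 3 days, spike-in scaling gave 102 higher and 267 lower in place of 257 and 153, and leaving out a library 288 to 304 calls in all, 101 to 121 of them lower. For NGP minus Kelly, with 28 calls (15 higher, 13 lower), spike-in scaling gave 644 calls, 631 of them lower, and limma-voom 15, 4 of them lower. The fit without a separate trend, chosen after seeing the data, gave 27 higher, and leaving out a library 10 to 17 calls, 7 to 12 of them higher and 3 to 7 lower. Of the called genes that the naming rule selects, none reversed its direction under these settings. H2AC19, outside that rule, was at -0.021 without STM2457 replicate 1. Little shared effect of the replicate number was seen: the correlation of the deviations of same-numbered libraries was 0.0038 over 9089 genes, and -0.034 to 0.11 over 66 pairs of groups. These values cannot settle whether same-numbered libraries were handled as pairs. The fit with the replicate number as a block called 588 genes (201 higher, 387 lower), 541 of them shared, and changed the call of none of the genes selected by rule. With 2 libraries a group, 61.6% of the genes changed 2-fold in the simulated data were found, and those data gave no gene a spread of its own.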

Other observations

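Among windows of 2 Mb with at least 5 tested genes, the 2 with the most genes called higher lay on chromosome 12, from 56 to 58 Mb (3 higher and 6 lower of 74, median -0.015) and from 68 to 70 Mb (3 higher and 1 lower of 16, median 0.23). Over all genes tested 1.25% were called higher and 2.45% lower. NGP is known for amplified copies of CDK4 and MDM2 in these regions. This pattern was noticed after the values were seen and has no test. In the 68 to 70 Mb window MDM2 (0.27), SLC35E3 (0.31) and CPSF6 (0.24) were called higher and CCT2 (-0.23) lower, while NUP107, next to them, stood at 1350.1 and 1335 CPM in DMSO and 1320.4 and 1259.6 CPM under STM2457 (-0.058) and did not pass. In the 56 to 58 Mb window CYP27B1, which makes the active form of vitamin D, stood at 35.5 and 35.2 CPM in DMSO and 66.4 and 58.6 CPM under STM2457 (log2 0.82, SE 0.15, edgeR adjusted p = 8.94e-05), AVIL at 43.3 and 48.7 CPM in DMSO and 82.1 and 78.2 CPM under STM2457 (log2 0.80, SE 0.15, edgeR adjusted p = 1.09e-04) and TSPAN31, 30% of whose exon bases are shared with CDK4, at 215 and 239 CPM in DMSO and 335 and 309.7 CPM under STM2457 (log2 0.51, SE 0.074, edgeR adjusted p = 5.71e-07). CDK4 itself, between them, stood at 1209 and 1219.7 CPM in DMSO and 1218 and 1196 CPM under STM2457, with a log2 difference of -0.0093 that did not pass. Neighbouring genes thus had different values within each window. SLC35E3 lost its call without DMSO replicate 2 or STM2457 replicate 1 (0.26 and 0.28).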
